A study of Mus musculus with 19 samples.

Results

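Interferon-stimulated genes are switched on when a cell senses interferon, and 46 of them were followed here in mouse spinal cord without miR-146a and in mouse motor neurons treated with an inhibitor of it. The list was drawn up with earlier results of these data known. Its genes were taken by symbol from the 55487 genes of each count table, and all 46 were found. Of these, 11 encode GTPases of the immunity-related GTPase family (Irgm1, Irgm2, Igtp, Iigp1, Ifi47, Tgtp1) and the guanylate-binding protein family (Gbp2, Gbp3, Gbp5, Gbp6, Gbp7), which are known as strong targets of interferon gamma, and the other 35 are described apart from them. The measurements are RNA-seq read counts from total RNA depleted of ribosomal RNA. The 13 spinal cords came from 9 mice labelled miR-146a knockout and 4 labelled miR-146a wild type, and the labels of these mice name no other allele, treatment, age, sex or litter. The 6 cultures were wild-type motor neurons made from the mouse embryonic stem cell line RW.4 with retinoic acid and the hedgehog agonist SAG. They were transfected for 72 h by Lipofectamine 2000 with a 10 nM locked nucleic acid (LNA), an antisense oligonucleotide, directed at miR-146a (3 cultures) or a control LNA (3 cultures). All cultures derive from 1 cell line, and nothing says whether the 3 cultures of a group came from separate differentiations, so the p-values speak of the spread among the libraries sequenced and no more.

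Type I interferons signal through the receptor pair Ifnar1 and Ifnar2 to a transcription factor complex that holds Stat2 and Irf9 and binds an interferon response element in the promoters of its targets. Interferon gamma signals through Ifngr1 and Ifngr2, and its targets carry a shorter palindrome called the gamma activated site. miR-146a is known as a brake on innate immune signalling through Traf6 and Irak1, and microglia are the resident immune cells of the spinal cord.

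The mature miR-146a-5p from RefSeq (GRCm38.p6) is shown with its seed, bases 2 to 8, in capitals, because the seed is what a target site pairs with. It lies on the minus strand within the Mir146 gene.
miR-146a-5p: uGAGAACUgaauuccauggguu
The reverse complement of the seed, AGTTCTC, was present in the longest annotated 3′ UTR of 5 of the 46 members (10.9%), against 2344 of 21010 genes with an annotated 3′ UTR (11.2%). The 5 were Stat2, Ifit2, Rnf213, Xaf1 and Ifi44. In Ifit2 and Rnf213 the match was followed by an A, the longest class of seed match, and these 2 are shown with the match in capitals. A match describes the letters only.
Ifit2: aattaccagccAGTTCTCAatctatggtgt
Rnf213: aagcactttccAGTTCTCAtgtcttgagat

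Promoter windows from RefSeq, 250 bases before to 50 after each annotated start, were matched for 35 of the 46 members, and no window was matched for Iigp1, Gbp6, Usp18, Oas2, Zbp1, Mx1, Mx2, Rtp4, Ifi27, Parp9 and Parp14. Both strands were searched for GAAANNGAAA, the core of the interferon response element, and for TTCNNNGAA, the core of the gamma activated site. The first motif was in the windows of 20 of 35 members (57.1%) and of 1079 of 27025 genes (3.99%). The second was in 12 of 35 members (34.3%) and in 9.55% of all genes. Among the GTPases, 8 of 9 windows held the first motif and 5 of 9 the second, while among the other members these counts were 12 of 26 and 7 of 26. The 250 bases upstream of the start are printed for 4 members with matches in different arrangements and for Cmpk2, which has neither motif in its window, with matches in capitals.
Irgm1 (chr11:48871421-48871670, minus strand): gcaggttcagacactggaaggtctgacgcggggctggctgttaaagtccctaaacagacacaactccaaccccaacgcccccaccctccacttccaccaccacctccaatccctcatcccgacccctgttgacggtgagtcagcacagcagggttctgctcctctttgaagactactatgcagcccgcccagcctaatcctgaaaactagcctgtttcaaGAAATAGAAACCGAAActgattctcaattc
Gbp5 (chr3:142496684-142496933, plus strand): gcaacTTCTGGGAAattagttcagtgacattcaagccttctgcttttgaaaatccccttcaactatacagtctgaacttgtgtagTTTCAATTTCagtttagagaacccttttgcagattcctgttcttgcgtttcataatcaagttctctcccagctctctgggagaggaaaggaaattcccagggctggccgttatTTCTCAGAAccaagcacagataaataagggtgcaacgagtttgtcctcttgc
Isg15 (chr4:156200819-156201068, minus strand): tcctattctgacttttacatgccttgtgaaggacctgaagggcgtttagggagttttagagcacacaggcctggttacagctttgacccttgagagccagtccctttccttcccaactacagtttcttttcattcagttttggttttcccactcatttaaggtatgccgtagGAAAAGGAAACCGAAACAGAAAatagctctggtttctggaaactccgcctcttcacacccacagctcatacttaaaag
Oas3 (chr5:120777660-120777909, minus strand): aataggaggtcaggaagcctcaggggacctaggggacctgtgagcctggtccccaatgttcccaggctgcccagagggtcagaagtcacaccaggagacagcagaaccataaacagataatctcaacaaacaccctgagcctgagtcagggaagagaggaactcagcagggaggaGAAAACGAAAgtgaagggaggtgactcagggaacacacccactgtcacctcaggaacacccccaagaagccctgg
Cmpk2 (chr12:26468965-26469214, plus strand): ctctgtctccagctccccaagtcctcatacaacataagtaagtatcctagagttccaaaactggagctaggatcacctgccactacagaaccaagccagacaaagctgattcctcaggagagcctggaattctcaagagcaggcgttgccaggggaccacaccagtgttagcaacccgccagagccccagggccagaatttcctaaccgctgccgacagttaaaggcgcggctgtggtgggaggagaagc
The 2 matches of Irgm1 and the 3 of Isg15 overlap each other, all are of the first motif, and both clusters lie shortly before the start. Gbp5 has 1 match of the first motif between 2 of the second.

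Total counts ranged from 28163289 to 39577247 per cord and from 40647549 to 65471742 per culture, so that 3 counts, the limit that a count of 0 allows, are at most 0.107 CPM (counts scaled to the library total) in a cord and 0.0738 in a culture. The library labelled knockout replicate 9 went against its label at Pttg1, the gene beside Mir146 that separates the other knockouts from the wild types: it had 13.0 normalised CPM, against 14.9 to 17.4 in the wild types and 1.06 to 1.81 in knockouts 1 to 8. Its Sod1 level was 1947 normalised CPM, against at most 275 in any other cord. Knockout replicate 7 stood apart through genes of skeletal muscle, whose 5 markers summed to 4964 normalised CPM, against 1.79 to 12.0 in the other 12 cords. Xist was above 100 CPM in 3 of 4 wild-type and 7 of 9 knockout cords. Mir146 itself had 1 count in all 19 libraries together, so its own transcript checks no label.

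In wild-type cords the members covered a wide range of levels per transcript length. Ifitm3, a membrane protein that blocks virus entry, had the highest level at 68.9 ± 4.10 TPM (transcript abundance scaled for gene length and library total; SD, n = 4), followed by the mitochondrial protein Ifi27 at 59.2 ± 3.38 and the nucleotide kinase Cmpk2 at 24.4 ± 1.05. The lowest were the RNA sensor Oas3 at 0.0801 ± 0.0476 TPM and the antiviral GTPase Mx1 at 0.209 ± 0.148, whose SDs overlap. In all, 36 of 46 members were above 1 TPM in wild-type cords and 18 of 46 in control cultures. The cultures were led by Ifi27 at 49.6 ± 3.38 TPM (SD, n = 3) and the transcription factor Stat2 at 48.7 ± 2.10, levels that did not differ beyond their SDs, and Ifitm3 stood there at 2.83 ± 1.29.

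The cord comparison asks how these genes differ between mice with and without miR-146a. The fitted log2 fold change was positive for 45 of 46 members, with a median of 1.03 against 0.02 over the 22174 genes tested, of which 53.1% were positive. The exception was Cmpk2. Yet edgeR's quasi-likelihood test with Benjamini-Hochberg adjustment called no member, and 0.0% of all genes, in either direction, and the adjusted p of the members ran from 0.292 to 0.781. At an unadjusted p below 0.05, 35 of the 46 were higher and 0 lower, against 7.53% of all genes higher and 6.8% lower. DESeq2 called 6 members higher (Irgm1, Gbp5, Oas3, Zbp1, Mx1 and Rsad2), against 1.19% of the genes it tested, and limma called 0, against 0.00451% of all genes higher. In bulk cord, more or fewer cells of a type and more or less RNA per cell cannot be told apart.

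**Figure D1:**
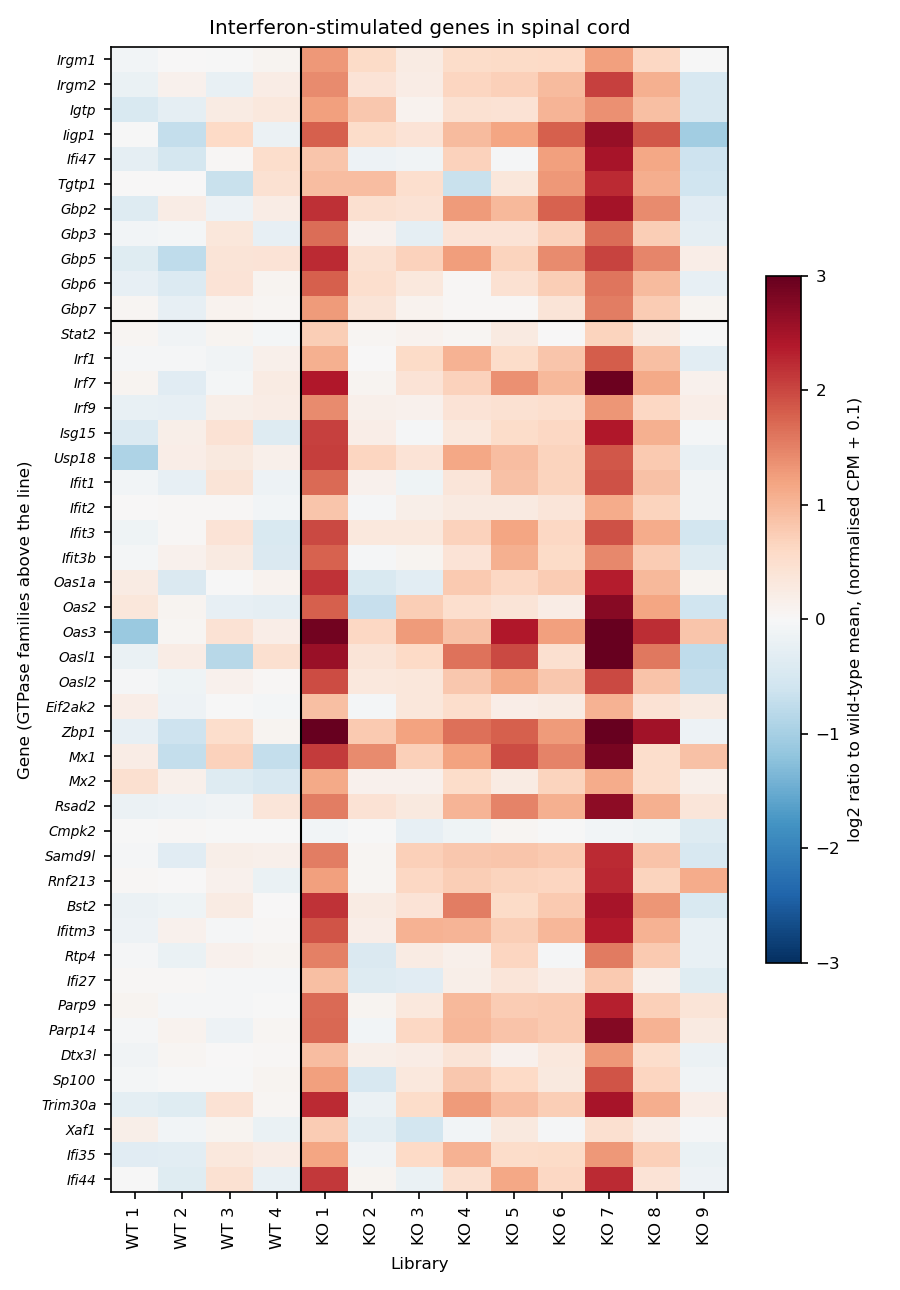
Each row is 1 of the 46 members and each column 1 of the 13 cord libraries, and the colour is the log2 ratio of normalised CPM plus 0.1 to the wild-type mean plus 0.1. The columns of knockouts 1 and 7 are the reddest, and the column of the library labelled knockout 9 stays near white.

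The 11 GTPases and the other 35 members differed little in size. The median log2 fold change was 0.95 for the GTPases, 0.91 for 9 of them without Ifi47 and Tgtp1, and 1.04 for the others. At an unadjusted p below 0.05, 7 of the 11 GTPases and 28 of the 35 others were higher, against 7.53% of all genes. The same share applies to each role-group count at that threshold below, and edgeR called no member of any role group in cords.

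Irgm1, a GTPase that regulates the other members of its family and autophagy, had 8.86, 9.36, 9.25 and 9.94 normalised CPM in the 4 wild types and 9.26 to 23.2 in the 9 knockouts, with a median of 14.0. Knockouts 1 to 8 were above every wild type, and the library labelled knockout 9 was inside their range. The log2 fold change was 0.69 with a standard error of 0.21, and the edgeR adjusted p was 0.292 against 0.045 by DESeq2. Igtp, which shares a locus and strand with Irgm2 so that their counts are uncertain, had 2.77, 3.15, 4.53 and 4.81 in the wild types and 2.69 to 10.0 in the knockouts, with a median of 6.73. Of its knockouts, 7 were above every wild type. All 3 regulatory GTPases (Irgm1, Irgm2, Igtp) had an unadjusted p below 0.05.

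Iigp1, Ifi47 and Tgtp1 belong to the branch that attacks the membrane around intracellular parasites, and 1 of the 3 reached an unadjusted p below 0.05. Iigp1 had 1.21, 0.71, 1.92 and 1.09 normalised CPM in the wild types and 0.54 to 8.01 in the knockouts, with a median of 2.94. Here 6 of 9 knockouts were above every wild type, and the library labelled knockout 9 was below all 4. Ifi47 had 0.47, 0.37, 0.60 and 0.89 in the wild types and 0.34 to 3.67 in the knockouts, with a median of 1.00. The groups overlapped, and knockout 7 alone was far above the rest.

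Guanylate-binding proteins coat and break open pathogen vacuoles, and 3 of 5 had an unadjusted p below 0.05. Gbp5, which also promotes inflammasome assembly, had 1.86, 1.39, 3.18 and 3.26 normalised CPM in the wild types and 2.79 to 11.7 in the knockouts, with a median of 5.95. Knockouts 1 to 8 were above every wild type. The log2 fold change was 1.35 with a standard error of 0.41 (adjusted p 0.292 by edgeR, 0.023 by DESeq2). Gbp3 had 5.35, 5.48, 7.21 and 4.75 in the wild types and 4.70 to 18.5 in the knockouts, with a median of 7.64 and with overlapping groups.

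Among the 4 transcription factors, Stat2 and Irf9 belong to the type I complex, Irf1 is an early target of interferon gamma and Irf7 drives interferon genes. Stat2 had 29.5, 26.1, 30.0 and 27.1 normalised CPM in the wild types and 27.8 to 47.0 in the knockouts, with a median of 30.1, and the groups overlapped. Irf1 had 5.53, 5.50, 5.19 and 6.27 against 4.53 to 20.1, median 10.1, with 7 of 9 knockouts above every wild type. Irf9 had 9.66, 9.53, 12.7 and 13.1 against 12.4 to 30.3, median 15.6, with 6 of 9 above. The log2 fold changes were 0.26 for Stat2, 0.85 for Irf1, 0.67 for Irf9 and 1.49 for Irf7, and 3 of the 4 had an unadjusted p below 0.05.

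Isg15 is a ubiquitin-like modifier and Usp18 the protease that removes it and dampens the type I receptor, and both had an unadjusted p below 0.05. Isg15 had 1.15, 1.79, 2.14 and 1.17 normalised CPM in the wild types and 1.50 to 8.65 in the knockouts, with a median of 2.32 and 5 of 9 above every wild type. Usp18 had 0.81, 1.87, 2.01 and 1.83 against 1.40 to 7.15, median 2.86, with 8 of 9 above. The library labelled knockout 9 lay within the wild-type range for both.

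Sensors and binders of foreign RNA were the largest role group, and 10 of 11 had an unadjusted p below 0.05. Oas3, which makes the second messenger that activates RNase L, was the only member for which all 9 knockouts were above every wild type, against 0.505% of all genes. Its levels were low, 0.03, 0.20, 0.28 and 0.23 normalised CPM in the wild types and 0.34 to 4.39 in the knockouts, with a median of 0.59. It also had the largest fitted log2 fold change of the members, 2.74 with a standard error of 0.81 (adjusted p 0.292 by edgeR, 0.015 by DESeq2). Ifit3, of the family that binds foreign RNA ends, had 9.54, 10.8, 14.0 and 7.56 in the wild types and 7.15 to 41.5 in the knockouts, with a median of 17.1. For Ifit3, 6 of 9 knockouts were above every wild type and the library labelled knockout 9 was below all 4. Ifit3 and Ifit3b are near copies, and reads of shared stretches are uncertain between them. Ifit1 is of the same tandem family, and Oasl1 and Oasl2 are neighbours of another. How far reads are shared among these relatives was not tested.

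Other antiviral effectors had an unadjusted p below 0.05 for 5 of 6. Mx1, which traps viral nucleoproteins, had 0.31, 0.11, 0.47 and 0.11 normalised CPM in the wild types and 0.41 to 2.42 in the knockouts, with a median of 0.85. Rsad2, or viperin, which makes a chain-terminating nucleotide, had 1.46, 1.48, 1.54 and 2.15 against 2.06 to 11.2, median 3.58, with 7 of 9 knockouts above every wild type. Cmpk2, the neighbour of Rsad2 in the genome, had 32.8, 33.8, 32.6 and 32.6 against 25.3 to 34.4, median 31.2. For Cmpk2, knockouts 1, 2, 3, 4, 7, 8 and 9 were below every wild type, knockout 6 was inside their range and knockout 5 above it. Its log2 fold change was -0.11 with a standard error of 0.07 (edgeR adjusted p 0.481).

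**Figure D2:**
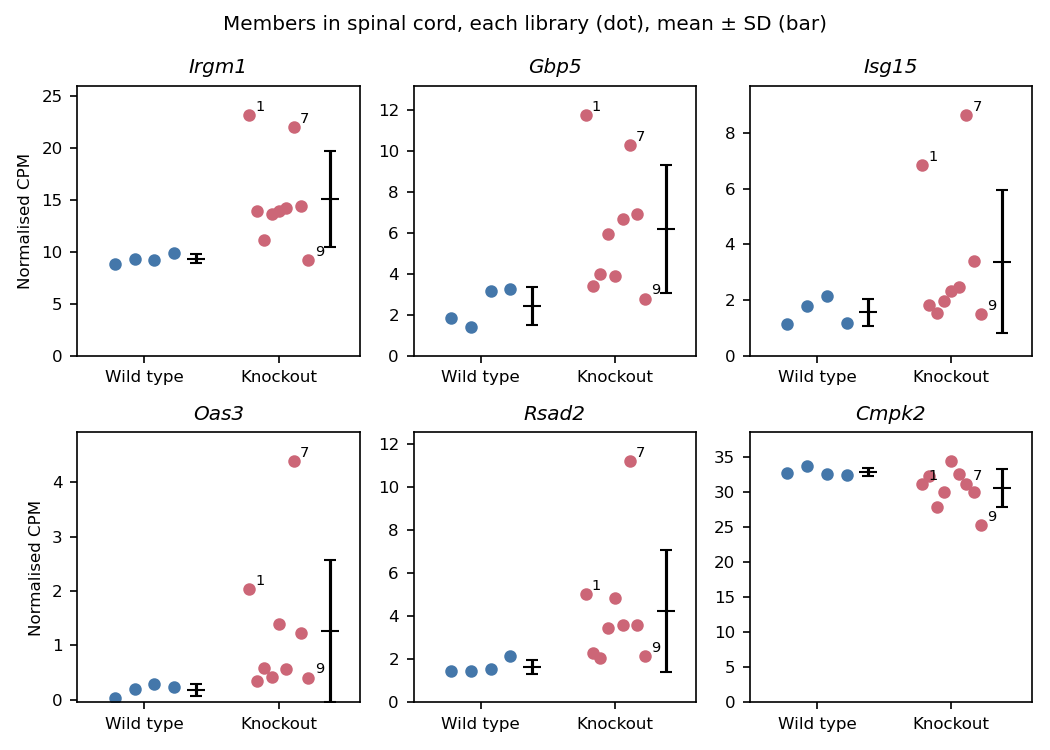
Normalised CPM of 6 members in each of 4 wild-type and 9 knockout cords (dots, with replicates 1, 7 and 9 numbered), with the mean and SD of each group as a bar. Knockouts 1 and 7 sit at the top for Irgm1, Gbp5, Isg15 and Oas3, and Cmpk2 shows no such pattern.

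Of the membrane proteins, 2 of 4 had an unadjusted p below 0.05. Bst2, the tether that holds virus particles at the cell surface, had 3.23, 3.35, 4.41 and 3.69 normalised CPM in the wild types and 2.65 to 20.7 in the knockouts, with a median of 6.43. Ifitm3 had 13.7, 16.7, 14.9 and 15.5 against 13.0 to 79.5, median 31.1. Knockouts 1 to 8 were above every wild type for Ifitm3, and 7 of 9 for Bst2.

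Among the 8 nuclear and ubiquitin-linked members, 6 had an unadjusted p below 0.05. Parp9 and Dtx3l form one ubiquitin ligase complex and share a promoter region on opposite strands. Their annotated genes overlap, and no source used here states whether counting used strand, so their counts are uncertain. Parp9 had 3.48, 3.18, 3.18 and 3.21 normalised CPM in the wild types and 3.45 to 16.9 in the knockouts, median 5.56, and Dtx3l had 8.79, 9.90, 9.60 and 9.74 against 8.44 to 23.4, median 11.8. For both, 8 of 9 knockouts were above every wild type. Ifi35 had 2.36, 2.38, 3.78 and 3.49 against 2.59 to 7.50, median 4.57, with 7 of 9 above.

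The size of the cord difference was uneven between knockouts. Knockouts 1 and 7 were the highest 2 of the 9 for 42 of 46 members, against 7.05% of all genes and 12.1% of genes with a log2 fold change above 0.5. The exceptions were Cmpk2 and the 3 GTPases Iigp1, Ifi47 and Tgtp1. The median ratio to the wild-type mean over the 35 members that are not GTPases was 3.33 in knockout 1 and 3.99 in knockout 7, against 1.06 to 1.77 in knockouts 2 to 6 and 8. For the GTPases these medians were 2.72, 4.19 and 1.19 to 2.11. Without knockouts 1 and 7, an alternative added after seeing the data, 44 members were positive, 25 had an unadjusted p below 0.05 (6.66% of all genes), edgeR called 0, and the medians fell to 0.56 for the GTPases and 0.53 for the others on the log2 scale.

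The library labelled knockout 9 was below every wild type for 18 members, inside their range for 22 and above it for 6 (Oas3, Eif2ak2, Mx1, Rnf213, Parp9 and Parp14). Its median ratio to the wild-type mean was 0.78 for the GTPases and 0.92 for the others. Without it, 45 members were positive, 41 had an unadjusted p below 0.05 (8.47% of all genes), edgeR called 0 (0.00918% of all genes), and the medians were 1.06 and 1.16. Without knockouts 7 and 9 together, 37 had an unadjusted p below 0.05 (8.94% of all genes), edgeR called 0 (0.0371% of all genes), and the medians were 0.85 and 0.88. Knockouts 1 to 8 were all above every wild type for 9 members (Irgm1, Gbp2, Gbp5, Usp18, Oas3, Oasl2, Zbp1, Ifitm3 and Dtx3l), against 0.938% of all genes.

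In both knockouts 1 and 7 the summed markers of microglia, neutrophils and monocytes, T and natural killer cells and red cells were above the wild-type range. The same held for pericytes and fibroblasts, astrocytes and motor neurons. For motor neurons it held for the sum but not for the median ratio to the wild-type mean. That ratio was 0.97 in knockout 1 and 1.06 in knockout 7, against 0.90 to 1.09 in the wild types. The sums of other lists were inside or below the wild-type range in knockout 1. Endothelium markers summed there to 284 normalised CPM against 252 to 320, and neuron markers to 3663 against 4051 to 4610. Oligodendrocyte markers summed to 12201 against 12375 to 16913, and B cell markers to 42.0 against 42.9 to 56.9. Over the 2 of 5 B cell markers tested, however, the median ratio was above the wild types. It was 3.27 in knockout 1 and 33.5 in knockout 7, against 0.45 to 1.37. Muscle markers summed to 3.27 against 1.84 to 12.0. All 10 microglia markers had a positive log2 fold change, with a median of 0.91, and their summed level was 269 to 1205 normalised CPM in the knockouts against 307 to 366 in the wild types. The markers of neutrophils and monocytes summed to 2.57 to 63.9 against 1.73 to 3.58, those of T and natural killer cells to 0.885 to 6.94 against 1.36 to 1.86, and those of red cells to 36.5 to 707 against 22.7 to 44.5. The 6 pericyte and fibroblast markers summed to 2267 in knockout 7 and to 183 to 344 in the other knockouts, against 186 to 217. The median ratio of the microglia list to the wild-type mean was 3.13 in knockout 4, 2.79 in knockout 1 and 3.37 in knockout 7. In knockout 4 the GTPases stood at 1.46 and the members that are not GTPases at 1.66. In knockout 2 the microglia list was at 0.78, the GTPases at 1.41 and the members that are not GTPases at 1.06. The ratio of the neutrophil and monocyte list was 24.4 in knockout 3, where the members that are not GTPases stood at 1.25, and 3.54 in knockout 1, where they stood at 3.33. The red cell list summed to 497 in knockout 5, where they stood at 1.60, and to 282 in knockout 1. The ratio of the T and natural killer cell list, over its 6 tested genes, was 4.02 in knockout 7 and 3.37 in knockout 1. It was 2.97 in knockouts 6 and 8 and 0.65 in the library labelled knockout 9. In knockouts 7, 1, 6, 8 and 9 the GTPases stood at 4.19, 2.72, 2.07, 2.11 and 0.78. The 35 other members stood there at 3.99, 3.33, 1.61, 1.77 and 0.92. In knockouts 2, 3 and 4 the T and natural killer cell list was at 1.37, 1.32 and 1.25. The GTPases stood there at 1.41, 1.19 and 1.46, and the other members at 1.06, 1.25 and 1.66. In knockout 5 the T and natural killer cell list was at 0.94, the GTPases at 1.43 and the other members at 1.60. The part of any of these cell types in the members' levels was not tested.

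**Figure D3:**
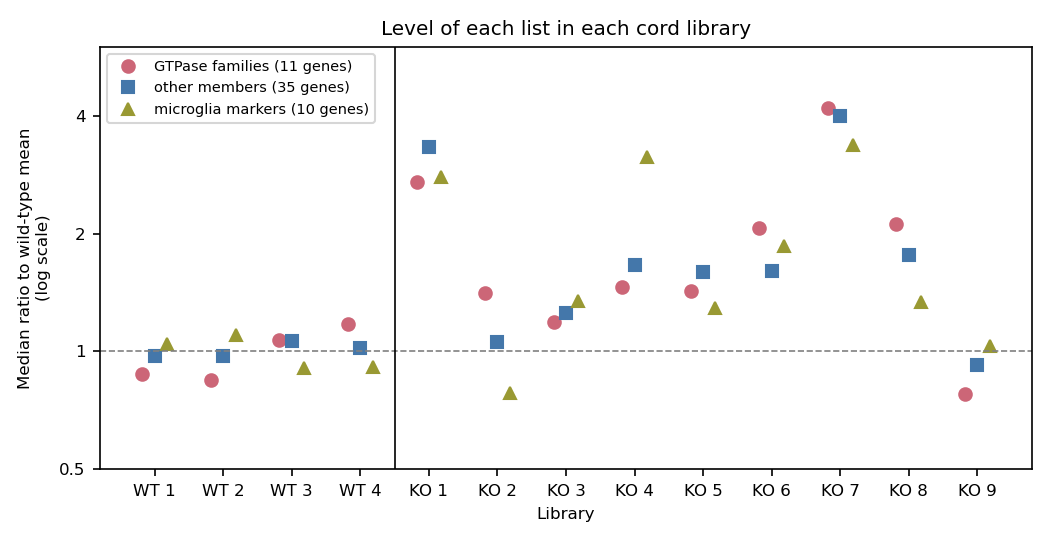
Median ratio to the wild-type mean, on a log axis, of the 11 GTPases (circles), the 35 other members (squares) and 10 microglia markers (triangles) in each of 13 cords. Both member groups are highest in knockouts 1 and 7, and the triangle of knockout 4 lies at 3.13 above both.

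Ligands, receptors and signalling genes stand upstream of the members. Of 21 interferon genes, 14 had no count in any of the 19 libraries and none was abundant enough to be tested. Ifng had 0 counts in the 13 cords together and Ifnb1 had 1. Of the 19 receptor and signalling genes, 18 had a positive log2 fold change in cords, against 53.1% of all genes, but the median was 0.15. At an unadjusted p below 0.05, 7 were higher, against 7.53% of all genes, and edgeR called 0, against 0.0%. DESeq2 called 3 of the 19 higher, against 1.19% of the genes it tested. One was Socs3, the feedback inhibitor of cytokine receptors, at a log2 fold change of 2.40 ± 0.73 (SE). The others were the myeloid transcription factors Irf8 at 1.67 ± 0.47 and Irf5 at 1.21 ± 0.39. For Socs3, Irf8 and Irf5 the DESeq2 adjusted p values were 0.022, 0.026 and 0.033. Ifnar1 had a log2 fold change of 0.09 ± 0.11 (SE), with an edgeR adjusted p of 0.725.

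The culture comparison asks how the same genes differ in motor neurons when miR-146a is blocked. Only 29 of the 46 members passed the filter on low counts, and 29 of 46 had a control mean under 1 normalised CPM. Of the 29 tested, 25 had a positive log2 fold change, against 51.5% of all genes, and edgeR called 4 higher (Irgm1, Cmpk2, Dtx3l and Ifi35) and 0 lower, against 2.4% of all genes higher and 6.16% lower. These were 458 and 1177 of 19099 genes, and scaling by library size alone gave 741 higher and 831 lower, with Irf9 called besides the 4. At an unadjusted p below 0.05, 11 members were higher and 0 lower, against 9.81% and 13.1% of all genes. DESeq2 called 6 members higher, adding Igtp and Irf9, and 0 lower, against 4.66% and 9.78% of the genes it tested, and limma called 10, against 4.1%. The median log2 fold change was 0.45 for the 7 GTPases tested and 0.34 for the 22 other members, against 0.01 for all genes. In 11 of the 29 members tested all 3 LNA cultures were above every control, against 12.8% of all genes tested, and in 1, Gbp5, they were below, against 15.1%.

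Irgm1 rose with the miR-146a LNA. It had 8.93, 7.71 and 6.54 normalised CPM with the miR-146a LNA and 2.86, 4.91 and 4.20 with the control LNA, and the groups did not overlap. The log2 fold change was 0.95 with a standard error of 0.19 (edgeR adjusted p 0.0040). It was called in each of the 6 fits that left out 1 culture, with log2 fold changes of 0.76 to 1.13. Irgm1 lies at chr11:48861968-48871683 (GRCm38), 5.49 Mb from Mir146, one of 9 members on that chromosome. Tgtp1 and Ifi47 lie about as close to Mir146, at 5.61 and 5.70 Mb. Any part of this position in the cord levels of these genes was not tested.

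Cmpk2 had 23.0, 27.1 and 21.25 normalised CPM with the miR-146a LNA and 21.23, 17.0 and 17.0 with the control, a log2 fold change of 0.37 with a standard error of 0.11 (edgeR adjusted p 0.0453). The lowest LNA culture and the highest control nearly coincided. Dtx3l had 4.33, 4.05 and 4.59 against 2.94, 3.04 and 2.47, a log2 fold change of 0.62 with a standard error of 0.18 (edgeR adjusted p 0.0423), and its groups did not overlap. Ifi35, a cytoplasmic partner of Nmi, had 2.48, 1.94 and 2.76 against 1.36, 1.36 and 1.17, a log2 fold change of 0.88 with a standard error of 0.24 (edgeR adjusted p 0.0303), again without overlap. When 1 culture was left out, Cmpk2 was called in 2 of 6 fits, Ifi35 in 1 and Dtx3l in 0, with edgeR adjusted p values of up to 0.212, 0.120 and 0.170.

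**Figure D4:**
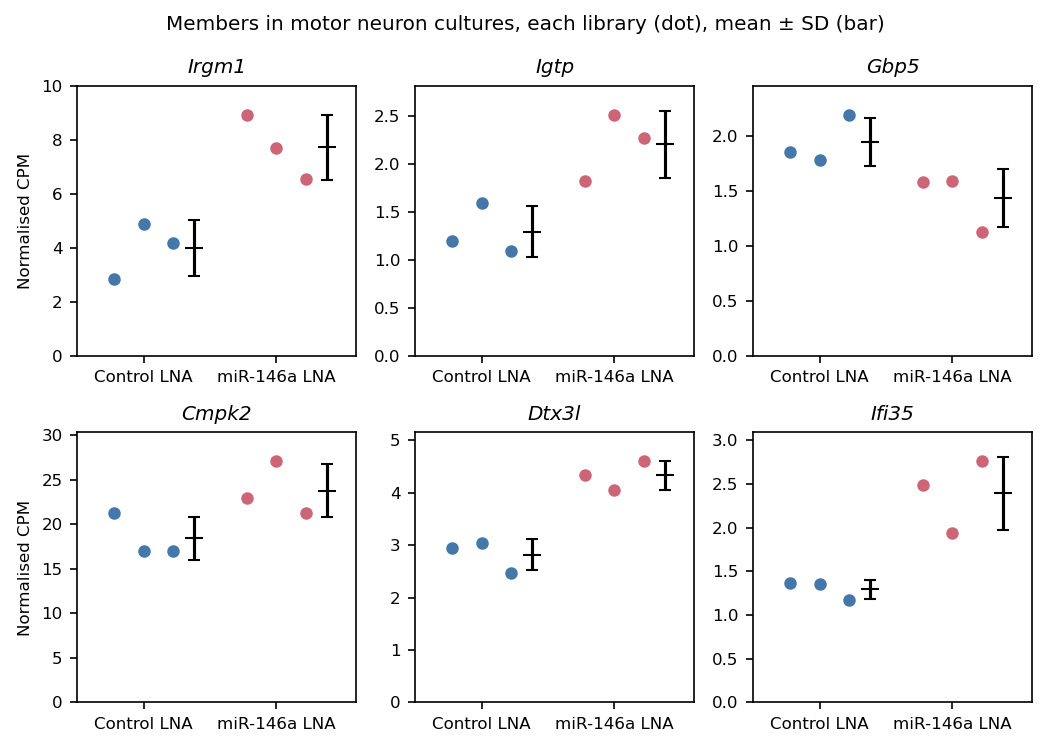
Normalised CPM of 6 members in 3 control LNA and 3 miR-146a LNA cultures (dots), with the mean and SD of each group as a bar. The groups of Irgm1, Igtp, Dtx3l and Ifi35 are apart, those of Cmpk2 nearly touch, and Gbp5 is lower with the miR-146a LNA.

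Of the other GTPases, Igtp had 1.83, 2.51 and 2.27 normalised CPM against 1.19, 1.59 and 1.09, without overlap (log2 fold change 0.77 ± 0.25 SE, edgeR adjusted p 0.067). Gbp3 had 5.60, 4.81 and 3.42 against 3.92, 2.67 and 3.51, with overlap. Gbp5 had 1.58, 1.59 and 1.13 against 1.85, 1.78 and 2.19, all 3 LNA cultures below the controls (log2 fold change -0.44 ± 0.25 SE, edgeR adjusted p 0.315). Iigp1, Ifi47, Tgtp1 and Gbp6 were too low to be tested, with 0 to 22 counts in each group of 3 cultures.

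Of the transcription factors, Stat2 and Irf9 were well expressed in culture. Stat2 had 80.3, 83.1 and 74.4 normalised CPM with the miR-146a LNA and 79.2, 76.1 and 72.8 with the control, with overlap. Irf9 had 27.6, 26.8 and 24.5 against 24.0, 20.9 and 20.6, without overlap (log2 fold change 0.27 ± 0.09 SE, edgeR adjusted p 0.067). Irf1 had 2.43, 3.37 and 2.87 against 3.13, 2.56 and 2.74, with overlap.

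Isg15, Mx1, Rsad2 and Oas3 were near the floor in these neurons, whereas the RNA binder Ifit2 and the RNA-sensing kinase Eif2ak2 stood at 7.21 and 13.0 TPM in control cultures. Isg15 had 26 counts in the 3 LNA cultures and 7 in the controls, Mx1 had 0 and 2, and Rsad2 had 2 and 31. Oas3 had 0.24, 0.20 and 0.18 normalised CPM against 0.02, 0.00 and 0.10, without overlap (log2 fold change 2.41 ± 0.86 SE, edgeR adjusted p 0.097). Usp18, Ifit3 and Ifitm3 were each under 1 normalised CPM in all 6 cultures, and their groups overlapped. Among the rest, Bst2 had 2.78, 2.71 and 2.76 against 2.47, 2.20 and 1.94, and Parp9 had 1.61, 1.56 and 1.29 against 1.18, 0.71 and 0.67. Neither group of values overlapped, and the edgeR adjusted p values were 0.390 for Bst2 and 0.120 for Parp9.

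Of the receptor and signalling genes in culture, edgeR called 0 of 19 higher and 2 lower, against 2.4% and 6.16% of all genes: the kinase Jak2 at -0.20 ± 0.06 (SE) on the log2 scale and the phosphatase Ptpn11 at -0.31 ± 0.08, with adjusted p values of 0.049 and 0.020. In culture 8 of the 10 microglia markers were too low to be tested, and none of the red cell or B cell markers was abundant enough.

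**Figure D5:**
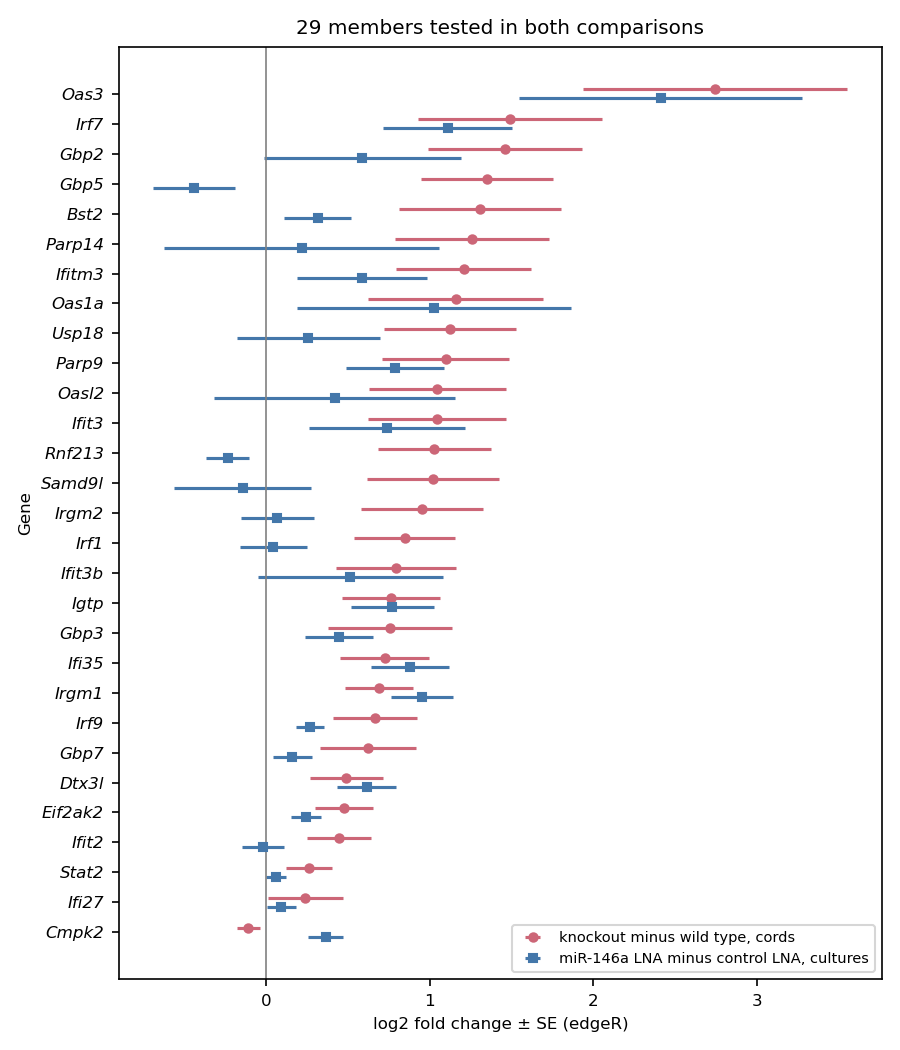
The edgeR log2 fold change with its SE in cords (circles) and cultures (squares) for the 29 members tested in both, ordered by the cord value. Gbp5, Ifit2, Samd9l and Rnf213 are positive in cords and negative in cultures, and Cmpk2 is the reverse.

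The 2 comparisons share no library. Of the 29 members tested in both, 24 were positive in both, Gbp5, Ifit2, Samd9l and Rnf213 were positive in cords and negative in cultures, and Cmpk2 was negative in cords and positive in cultures. In 1 fit over all 19 libraries, a contrast of the cord effect with the culture effect was called by edgeR for 1 of 46 members, Rsad2, against 1.75% of all genes in either direction (adjusted p 0.0279). Rsad2 was too low to be tested in the cultures alone. With 2 and 31 counts in culture, the fitted size of that difference depends on how low counts are handled, and limma called Cmpk2 in its place. For Irgm1 the difference was -0.24 ± 0.33 (SE) on the log2 scale, for Gbp5 1.81 ± 0.58 and for Cmpk2 -0.45 ± 0.14, with edgeR adjusted p values of 0.798, 0.136 and 0.134.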

How the data were processed

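RNA-seq was run on 13 mouse spinal cords and 6 motor neuron cultures. Reads were aligned with STAR to GRCm38 and assigned to Ensembl genes with featureCounts, per the submitters' processing notes. The authors deposited, per the file headers, a read count, CPM, FPKM and TPM for each gene in each library. For strand use and trimming, the sources used here give nothing. Deposited counts were tested, deposited TPM values gave levels per length, and the deposited CPM values served only to check the tables. The FPKM values were not used. Normalised CPM are counts scaled by edgeR's TMM factors. Genes were filtered with filterByExpr and tested with edgeR 4.0.16 (quasi-likelihood, robust) on R 4.3.3, cords and cultures apart, with Benjamini-Hochberg adjustment over all tested genes and a threshold of 0.05. A single fit over 19 libraries tested the difference between both effects. DESeq2 1.42.0, limma 3.58.1 (voom with quality weights), other scalings and filters, an Xist term, a replicate block and leaving out libraries were alternatives. The code was tested on simulated data. Symbols were matched for 55141 of 55487 genes, and no libraries were near-duplicates. Replicate numbers of the cords only name libraries. Those of the cultures come from the titles, and same-numbered cultures did not deviate together. Sequences are from RefSeq (GRCm38.p6) and 3′ UTRs and positions from GENCODE (GRCm38). Within each role, values by library are given for the member with the highest wild-type TPM, the smallest p in cords and in cultures, and each called member. The members and lists were chosen with earlier results of these data known. Values of 1 gene of the signalling list are not reported here.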

Additional observations from a re-analysis of the deposited data

Results flagged for a closer look

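A library stood far from the others of its group for 14 of 92 group-and-gene pairs looked at in cords. Chance gives about 1 in 20 for a single pair, but these pairs share the same libraries and are not independent. In 10 of these the library was knockout replicate 7, the cord with high muscle markers, at the top of the 9 knockouts: Ifi47 at 3.67 normalised CPM, Tgtp1 at 1.84, Irf1 at 20.1, Oas2 at 6.46, Oas3 at 4.39, Oasl1 at 7.93, Mx1 at 2.42, Rsad2 at 11.2, Rnf213 at 165 and Parp14 at 41.6. The other 4 were wild types: Gbp7 was low in replicate 2 at 5.16, Usp18 low in replicate 1 at 0.808, Rsad2 high in replicate 4 at 2.15 and Parp9 high in replicate 1 at 3.48. For Rsad2 the contrast of the cord effect with the culture effect was past the edgeR threshold, at a fitted 5.06 on the log2 scale (adjusted p 0.0279). Its size rests on 2 and 31 counts in the cultures and is no measured bound.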

How the results depend on the processing

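In cords, edgeR's count of 0 called genes became 345 with DESeq2, 3 with limma, 8 without knockouts 7 and 9, and 0 to 2 when 1 cord was left out. The count of called members became 6 with DESeq2 and was 0 under every other alternative run. Both cord medians stayed positive under all alternatives. In cultures, the 4 called members became 10 with limma and ranged from 1 to 6 when 1 culture was left out, with 1 left without LNA replicate 1 or control replicate 3 and 2 without LNA replicate 2 or control replicate 2. The GTPase median moved from 0.45 to 0.59 with limma and ranged from 0.10 to 0.62 on leaving out 1 culture, and all called genes ranged from 778 to 1985. Irf1 in culture changed sign when 1 culture was left out, from -0.0817 to 0.15, with negative values without LNA replicate 2 or control replicate 2. With a replicate block 3 members and 1793 genes were called, and Dtx3l was the member lost. Same-numbered cultures correlated at 0.05, -0.17 and 0.02 over genes, so the numbers did not pair them. For the interaction, 3 members were called without knockouts 7 and 9 (Ifi47, Rsad2 and Rnf213), the same number without knockout 7 alone, and 0 to 3 on leaving out 1 library. The causes of these changes were not tested. Of the members named, Ifi47 and Rsad2 were too low to be tested in the cultures alone. Ifi47 had 0 counts in every LNA culture and 2, 8 and 3 in the controls, so the size of its difference is no measured bound. In cultures 17 of 46 members were too low to test, although every culture had more counts than every cord.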

Other observations

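Other interferon-inducible genes outside the members were also mostly higher in knockout cords. Of 43 such genes, 41 were tested, 38 had a positive log2 fold change (53.1% of all genes) and 28 were higher at an unadjusted p below 0.05 (7.53% of all genes), with a median of 0.88. DESeq2 called 10 of them higher (1.19% of the genes it tested) and edgeR 0. Among these were genes of the Ifi200 family of nucleic acid sensors, with edgeR log2 fold changes of 3.88 ± 1.08 (SE) for Ifi207, 3.34 ± 0.94 for Ifi204 and 3.06 ± 0.93 for Ifi209, and the retroviral restriction factor Apobec3 at 1.34 ± 0.38 (DESeq2 adjusted p 0.004, 0.008, 0.010 and 0.011). Of 31 near relatives of the members, 21 were tested, 17 were positive and 12 were higher at an unadjusted p below 0.05, against the same shares.

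In cultures 25 of the 43 interferon-inducible genes were tested and 15 were positive, against 51.5% of all genes, with a median of 0.19. At an unadjusted p below 0.05, 9 were higher and 2 lower, against 9.81% and 13.1%. DESeq2 called 5 higher and 1 lower, against 4.66% and 9.78%, and edgeR 4 higher and 0 lower, against 2.4% and 6.16%. The 4 were the RNA sensor Ddx58 (log2 fold change 0.68 ± 0.18 SE, adjusted p 0.030), its relative Ddx60 (2.19 ± 0.56, 0.022), the ubiquitin ligase Trim25 (0.38 ± 0.09, 0.019) and the RNA helicase Mov10 (0.44 ± 0.13, 0.049). Of the 31 near relatives 11 were tested, 6 were positive, and edgeR called 2 higher and 0 lower, Gbp9 (0.66 ± 0.19, adjusted p 0.035) and Ifitm2 (0.57 ± 0.12, 0.0040).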
